A study of Mus musculus with 6 samples.

Results

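The 44 genes described here are developmental homeobox genes that lie outside the Hox clusters, Emx2 and the TALE cofactors Pbx and Meis among them. They were taken by name: every probe set whose platform annotation gives exactly 1 of these symbols was used. That gave 84 probe sets for all 44 genes, out of 45101 probe sets and 18194 genes with a symbol of their own on the array. After the dimmest 40% of probe sets by mean over all 6 arrays had been left out, 59 probe sets of 30 members were tested, and 14 members had no tested probe set. None of the 44 lies on the X or Y chromosome in the RefSeq table.

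Homeobox genes encode transcription factors that bind DNA through the homeodomain, a helical fold that often reads a TAAT core. Their names reflect families with shared ancestry: the TALE proteins (Pbx, Meis, Pknox, Tgif and Irx) carry a homeodomain with an extended loop, and Pbx and Meis proteins pair with each other and with Hox proteins on DNA. Emx2, the mouse relative of the fly gene empty spiracles, is needed for the kidneys, gonads and genital tracts and for parts of the cerebral cortex. In the trunk of the embryo, Msx, Prrx, Alx, Tshz and Irx genes mark regions of mesenchyme, epithelium or neural tube.

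Messenger RNA was measured in the epithelium of the gonadal primordium of E10.5 mouse embryos, cut out by laser microdissection from 30 µm sections of unfixed frozen fetuses. There were 3 pools labelled +/+ (wild-type) and 3 labelled -/- (Emx2 KO), each mixing material of 3 fetuses, and 15 ng of RNA per pool was amplified over 2 cycles and read on 1 array. The mutant allele, the strain and the litters are not described in the sources used here. Nothing says that pools came from separate litters, so p-values cover the spread among these pools only. Intensities were scaled to a common level, log2 was taken, and KO was compared with wild-type with limma over all 27022 tested probe sets. A call means an adjusted p (Benjamini-Hochberg) under 0.05, a positive log2 fold change (given with its standard error, SE) means higher in KO, and means are given with their SD (n = 3 pools each).

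Of a list of 12 markers of gonadal epithelium, Msln alone lay under the dim limit, an intensity of 26.4, in both groups. The summed level of that list ran from 22853 to 26211 in wild-type and from 20489 to 22637 in KO pools, with Krt19 called higher and Aldh1a1, Krt8 and Nr5a1 lower. Xist, the RNA of the inactive X chromosome, read 20.7, 13.3 and 69.9 on its brightest probe set in wild-type against 9320, 9326 and 9888 in KO, and the brightest probe sets of Eif2s3y, Kdm5d and Uty on the Y chromosome were called lower in KO, so sex of the fetuses and genotype cannot be told apart. KO replicate 2 stood apart from the other pools. In it 26 of 27022 probe sets read at least 2-fold above every other pool, against 2 to 15 in each of the others. Results below are therefore also given without that pool where it mattered.

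Emx2 itself was read by 1 probe set, 1456258_at, and its signal did not differ detectably between the groups. The wild-type pools read 1302, 2120 and 1727 and the KO pools 1678, 1480 and 1746. The KO values lay inside the wild-type range. The log2 fold change was −0.05 (SE 0.15, adjusted p = 0.916), with a 95% interval from −0.37 to 0.28, so a loss of signal to below 0.773 of wild-type lies outside it. The sign turned to 0.05 with no rescaling of the arrays. The position of the probe set with respect to the altered stretch of the gene is unknown from the sources used here. It therefore does not check the labels, and KO means the pools labelled so.

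Emx2os, the RNA named for the opposite strand and the immediate neighbour of Emx2 in the RefSeq table with no overlap of their spans, had wild-type values of 167, 230 and 174 and KO values of 44.9, 28.6 and 42.9 (log2 fold change −2.30, SE 0.24, adjusted p = 0.00015). Every KO pool lay far under every wild-type pool. The 250 bases upstream of the annotated Emx2 start (chr19:59458440-59458689, plus strand, RefSeq, GRCm38.p6) are shown because Emx2os fell while the Emx2 signal did not. Capitals mark TAAT, searched on either strand as TAAT or ATTA.
Emx2: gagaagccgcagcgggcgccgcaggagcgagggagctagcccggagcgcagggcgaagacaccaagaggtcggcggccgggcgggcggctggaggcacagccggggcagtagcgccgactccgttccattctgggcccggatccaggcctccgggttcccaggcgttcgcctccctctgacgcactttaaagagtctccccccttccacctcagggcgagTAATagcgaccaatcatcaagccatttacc

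Emx1, the paralog of Emx2, was dim on both of its probe sets and was not tested. Probe set 1441777_at had wild-type values of 21.5, 27.9 and 4.48 and KO values of 3.39, 7.13 and 6.10. Probe set 1444216_at had wild-type values of 5.49, 2.40 and 3.73 and KO values of 3.91, 4.30 and 3.42. All KO values lay under the intensity floor of 7.99.

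Across the members, 6 of 59 probe sets were called, 10.2% against 4.68% of all tested probe sets. Probe sets of a gene share its RNA and are not independent, and 3 of the 6 belong to Meis2. The 5 higher calls were Meis2 (3 probe sets), Prrx2 and Cux1, 8.47% against 2.75% of all. The lower call was Tshz1, 1.69% against 1.93% of all, a share near the background. Taking each gene by its brightest probe set, 3 of 30 members were called, 10% against 5.41% of all genes. Of these, 2 were higher (Prrx2 and Cux1), 6.67% against 2.93% of all, and 1 was lower (Tshz1), 3.33% against 2.48% of all. The KO and wild-type values did not overlap in 22 of 59 member probe sets (37.3%), against 22% of all. The median log2 fold change of the member probe sets was 0.03 and its median size 0.29, against 0.01 and 0.18 over all probe sets. None of the 59 tested member probe sets changed by 2-fold or more. On simulated arrays with 96 2-fold and 92 4-fold changes the same test recovered 33.3% and 84.8% of them. Fewer probe sets were changed there than were called here, which makes the adjusted threshold stricter. These are therefore not the shares that the test would recover in these data. A missing call does not show that a gene was unchanged.

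**Figure D1:**
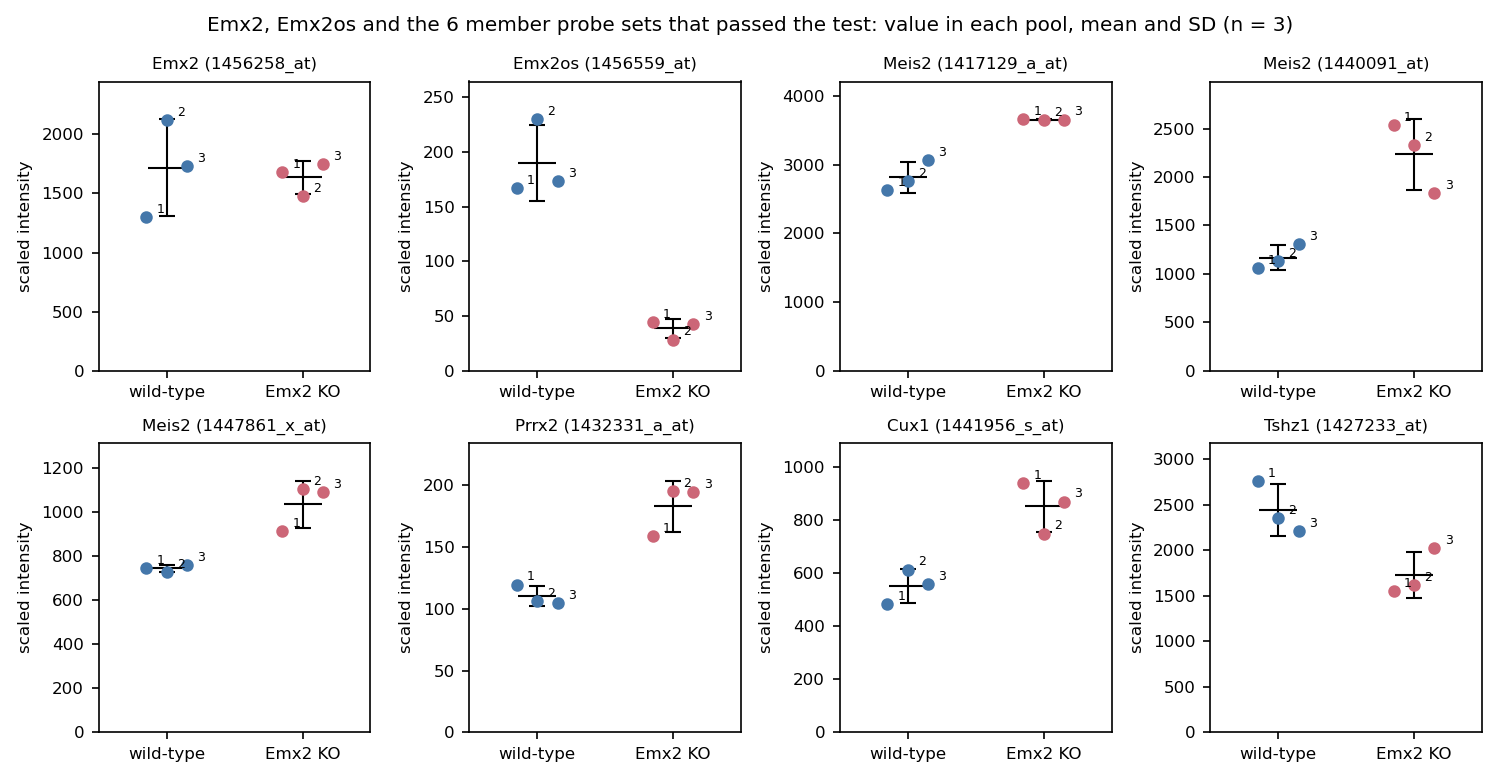
Scaled intensity (vertical axis, from 0) of Emx2, Emx2os and the 6 called member probe sets in each pool. Points are pools numbered by replicate, bars are the mean and SD of 3 pools. The Emx2 groups overlap, and the groups of each of the other 7 panels do not.

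Among the TALE genes Meis2 rose. Meis2 encodes a partner of Pbx and Hox proteins with roles in limb, heart and neural crest. Its probe set 1440091_at had wild-type values of 1057, 1134 and 1311 and KO values of 2536, 2332 and 1832. Every KO pool lay above every wild-type pool. The means were 1167 ± 130 and 2233 ± 362 (log2 fold change 0.93, SE 0.13, adjusted p = 0.00111), a 1.90-fold rise. It passed with any single pool left out, with log2 fold changes from 0.83 to 1.06, and without KO replicate 2 it was 0.89 (adjusted p = 0.0075). Of the 19 alternatives tried it missed the threshold in the fit with no filter on dim probe sets (adjusted p = 0.122).

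The other Meis2 probe sets gave smaller differences in the same direction. Probe set 1417129_a_at read 2625, 2765 and 3066 against 3660, 3644 and 3655 (log2 fold change 0.38, SE 0.09, adjusted p = 0.0235). Probe set 1447861_x_at read 747, 727 and 759 against 912, 1104 and 1088 (log2 fold change 0.47, SE 0.12, adjusted p = 0.0342). The brightest, 1457632_s_at, read 4052, 3665 and 4379 against 4429, 4783 and 4842 and did not pass (log2 fold change 0.22, SE 0.09, adjusted p = 0.205). The groups did not overlap on any of the 4. The calls of 1417129_a_at and 1447861_x_at rested on the set of pools: the first passed without wild-type replicate 3 alone (adjusted p = 0.00615, otherwise 0.0653 to 0.104), the second without wild-type replicate 3 (0.0454) or KO replicate 1 (0.0314), otherwise 0.0819 to 0.149.

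The Meis2 probe sets differed in the size of their log2 fold change. The log2 ratio of the probe set with the largest to the one with the smallest is given as a description, since the pair was chosen for it. The log2 ratio of 1440091_at to 1457632_s_at had wild-type values of −1.94, −1.69 and −1.74 and KO values of −0.80, −1.04 and −1.40. It was higher in all 3 KO pools, by 0.71 on average. Which Meis2 transcripts each probe set reads was not determined. With the mean of all tested probe sets per gene, Meis2 gave 0.50 (SE 0.08, limma adjusted p = 0.00356).

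The remaining TALE cofactors gave no call. Meis1, the closest relative of Meis2, had wild-type values of 2688, 2533 and 2885 and KO values of 3234, 2567 and 2683 on its brightest probe set (log2 fold change 0.06, 95% interval −0.16 to 0.28). Its other probe sets gave 0.03 and −0.12. Meis3 gave −0.09, and of the Meis relatives Pknox1 and Pknox2 the brightest probe sets gave 0.02 and −0.28. Pbx2 gave −0.06, 0.05 and 0.06 on 3 probe sets, the interval of the brightest being −0.37 to 0.24. Tgif1 and Tgif2, repressors of TGF beta and retinoid responses, gave −0.07 and −0.05. Tgif2 had wild-type values of 1092, 1037 and 808 and KO values of 803, 1113 and 913, and its sign turned with no rescaling (0.04).

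Pbx3 came nearest to a call among these. Its bright probe set 1447640_s_at had wild-type values of 4996, 4326 and 5145 and KO values of 3843, 4022 and 3974. All KO values were below all wild-type values, yet the difference missed the threshold (log2 fold change −0.29, SE 0.09, adjusted p = 0.0843). Without wild-type replicate 2 it was −0.36 (adjusted p = 0.0373). The other Pbx3 probe set gave −0.07 (adjusted p = 0.833) with overlapping groups.

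**Figure D2:**
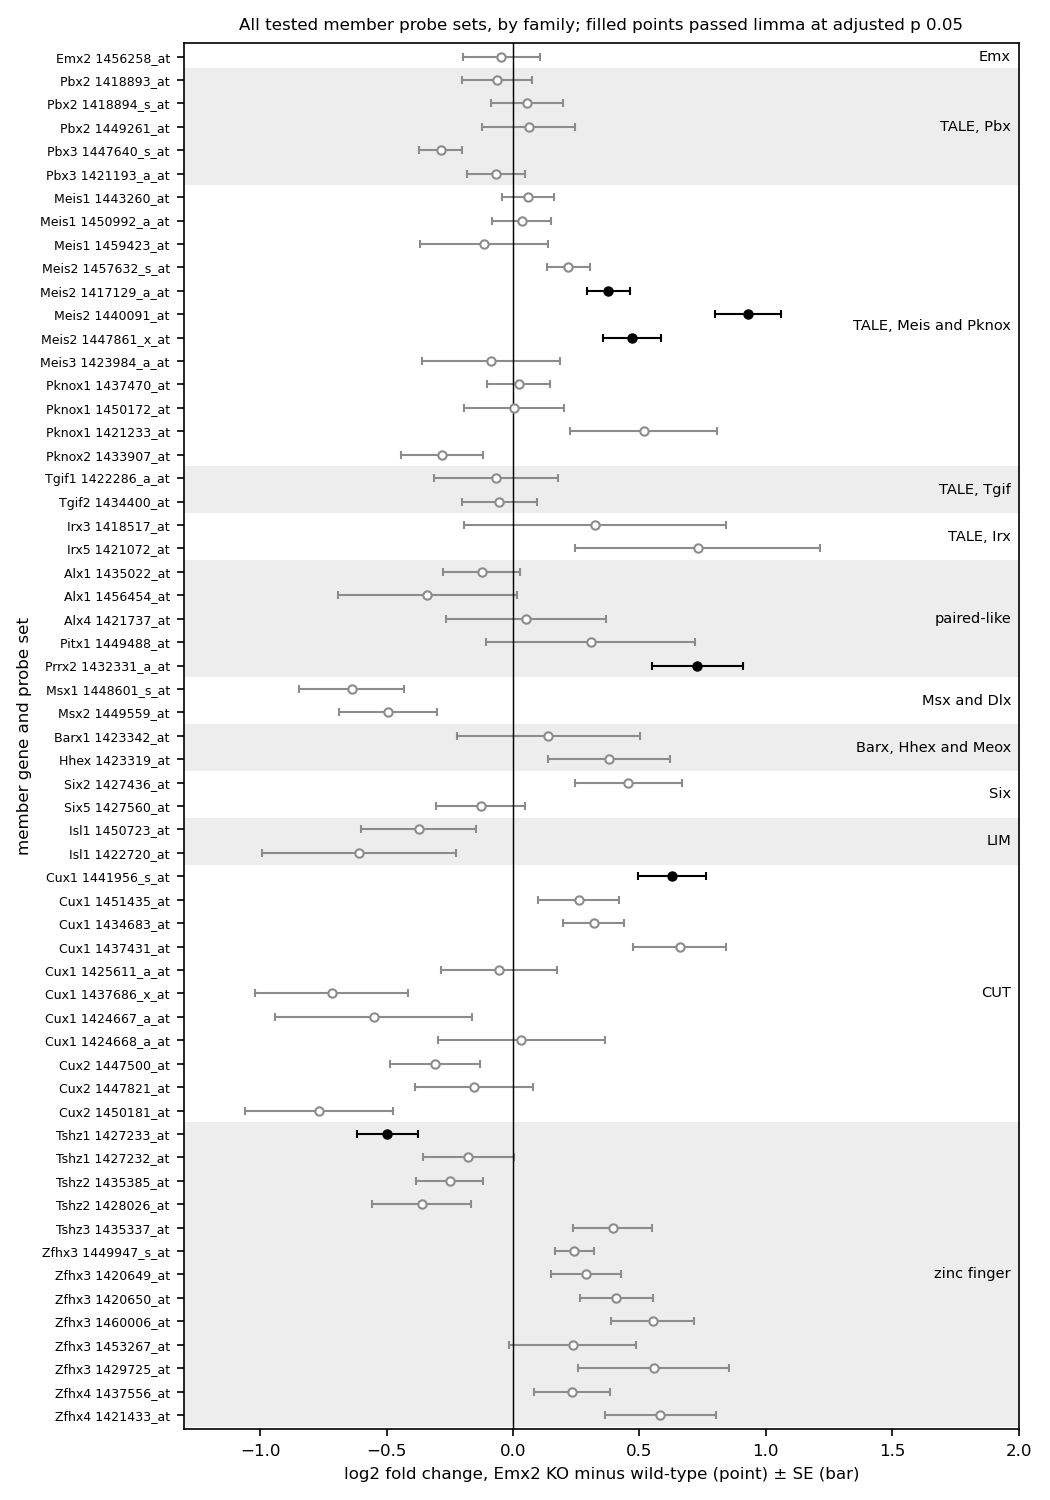
Log2 fold change of KO minus wild-type (horizontal axis, bars are the SE) for the 59 tested member probe sets, grouped by family. Filled points passed limma at an adjusted p of 0.05: 3 of Meis2 and 1 each of Prrx2, Cux1 and Tshz1.

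Of the Irx genes, Irx3 and Irx5 were high in 1 pool, KO replicate 2, and did not separate the genotypes. Irx genes encode TALE factors of the Iroquois group, which pattern the neural tube, heart and limb, and they sit in 2 clusters, Irx3, Irx5 and Irx6 being neighbours on chromosome 8 and Irx1, Irx2 and Irx4 on chromosome 13 with no protein-coding gene between them. Irx3 had wild-type values of 164, 107 and 152 and KO values of 93.6, 570 and 97.7. Irx5 had wild-type values of 38.5, 30.1 and 39.2 and KO values of 31.5, 161 and 40.9. KO replicate 2 was high for both, at 3.47 and 3.93 times the next pool, and the other KO pools lay near or below wild-type. Neither gene passed (log2 fold change 0.32, adjusted p = 0.816, and 0.73, adjusted p = 0.492). Without KO replicate 2 the log2 fold changes were −0.53 for Irx3 (adjusted p = 0.352) and 0.01 for Irx5 (adjusted p = 0.995), so the sign of Irx3 turned.

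Irx1 and Irx2, too dim to be tested, also peaked in KO replicate 2. Irx1 had wild-type values of 18.8, 13.5 and 20.5 and KO values of 13.8, 53.8 and 18.3, and Irx2 read 7.44, 8.60 and 21.1 against 33.7, 59.3 and 19.9. Irx4 and Irx6 were at most 4.25 and 29.9 in any pool. The same pool was high in single genes of neural cells, named here for their values. Hes5, a Notch target of neural progenitors, read 1486 there and at most 34.4 elsewhere, and Tubb3, a neuronal tubulin, read 161 there and at most 15.3 elsewhere. Elavl3, an RNA-binding protein of neurons, read 136 there and at most 47.8 elsewhere. Of 8 genes on the array from a list of neural crest, melanoblast and nerve markers, 4 were highest in KO replicate 2, and Foxd3 was under the dim limit in both groups. Stmn2 was called higher in KO and Dct, a melanoblast enzyme, lower, and the list summed to 567 to 679 in wild-type and to 366, 658 and 387 in KO pools. The sum of KO replicate 2 thus lay inside the wild-type range, but Dct weighs on that comparison. Dct was at least 226 and at most 313 across the wild-type pools. It read 8.11 in KO replicate 2, with 42.1 for KO replicate 1 and 21.3 for KO replicate 3. The sum therefore does not show whether the other genes of the list were raised in KO replicate 2. Dct passed the filter on dim probe sets through its wild-type values, as KO replicates 2 and 3 lay under the limit. Its call is therefore not support for a fall. The part of neural cells in the Irx values was not tested.

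**Figure D3:**
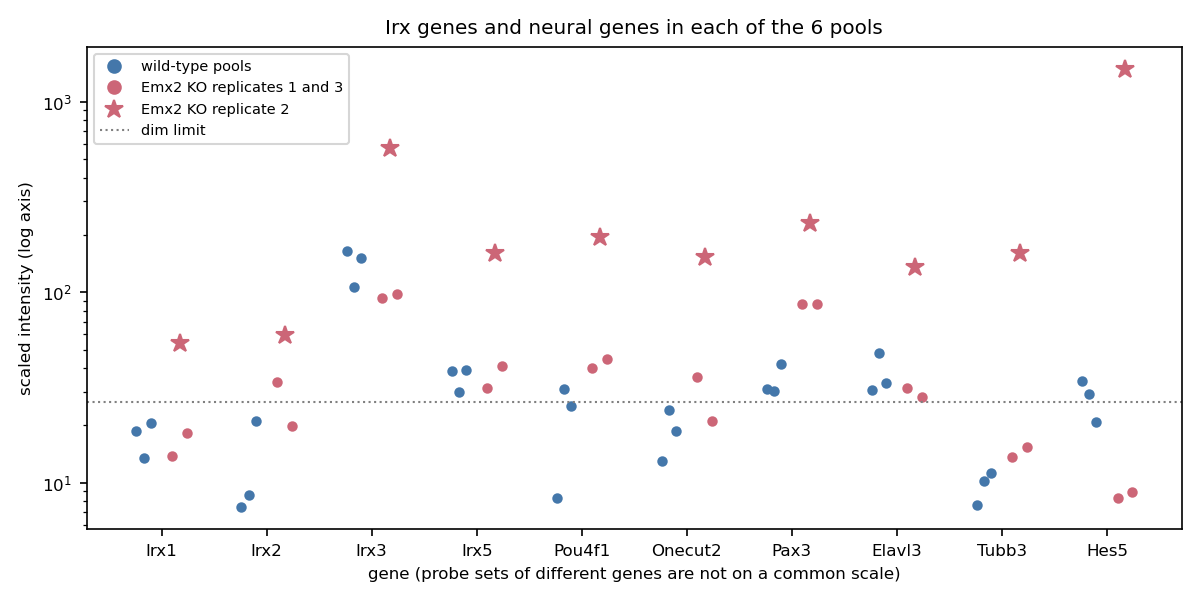
Scaled intensity (log axis) of 4 Irx genes and 6 genes of neural tissue in the 6 pools. The star marks KO replicate 2, which is the highest pool for all 10 genes, for example 570 for Irx3 and 1486 for Hes5.

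Of the paired-like genes Prrx2 rose. Prrx2 encodes a factor of mesenchyme in limb, face and heart. It had wild-type values of 120, 107 and 104 and KO values of 159, 195 and 195. The groups did not overlap, and the means were 110 ± 8.24 and 183 ± 20.7 (log2 fold change 0.73, SE 0.18, adjusted p = 0.0355), a 1.66-fold rise. The call did not hold with any pool left out, where the adjusted p ran from 0.0529 to 0.145 and the log2 fold change from 0.68 to 0.83, nor with the arrays scaled to a common median (adjusted p = 0.0502). Without KO replicate 2 it was 0.68 (adjusted p = 0.14).

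Its relatives did not pass. Alx1, a factor of craniofacial and limb mesenchyme, gave −0.12 and −0.34 on 2 probe sets. Alx4 gave 0.05 and Pitx1, a factor of hindlimb and pituitary, 0.31. Shox2 was too dim to be tested, reading at most 34.1.

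Several mesenchyme markers were higher in KO, as were Prrx2 and Meis2. Other members named here as mesenchyme factors, and their paralogs, went both ways, more of them down than up. On the brightest probe sets the lower ones were Tshz1 (−0.50), Tshz2 (−0.25), Msx1 (−0.64), Msx2 (−0.49), Alx1 (−0.12) and Isl1 (−0.37). The higher ones were Tshz3 (0.39), Barx1 (0.14) and Alx4 (0.05). Of these only Tshz1 was called. Over all genes, 2.93% were called higher and 2.48% lower. Of 12 markers of ridge and lateral plate mesenchyme, 7 were called higher (Col3a1, Osr1, Pdgfrb, Postn, Prrx1, Tcf21 and Twist1) and 0 lower. Their summed level had wild-type values of 16299, 15621 and 14499 and KO values of 21451, 21273 and 22406, and none of the 12 was under the dim limit in both groups. Of 10 endothelial markers 8 were tested and 4 were called higher, with sums from 971 to 1242 in wild-type and from 1602 to 1992 in KO pools, Pecam1 and Tie1 being under the dim limit in both groups. The part of these cell types in the rises was not tested. In pooled tissue more cells of a type and more RNA per cell cannot be told apart.

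**Figure D4:**
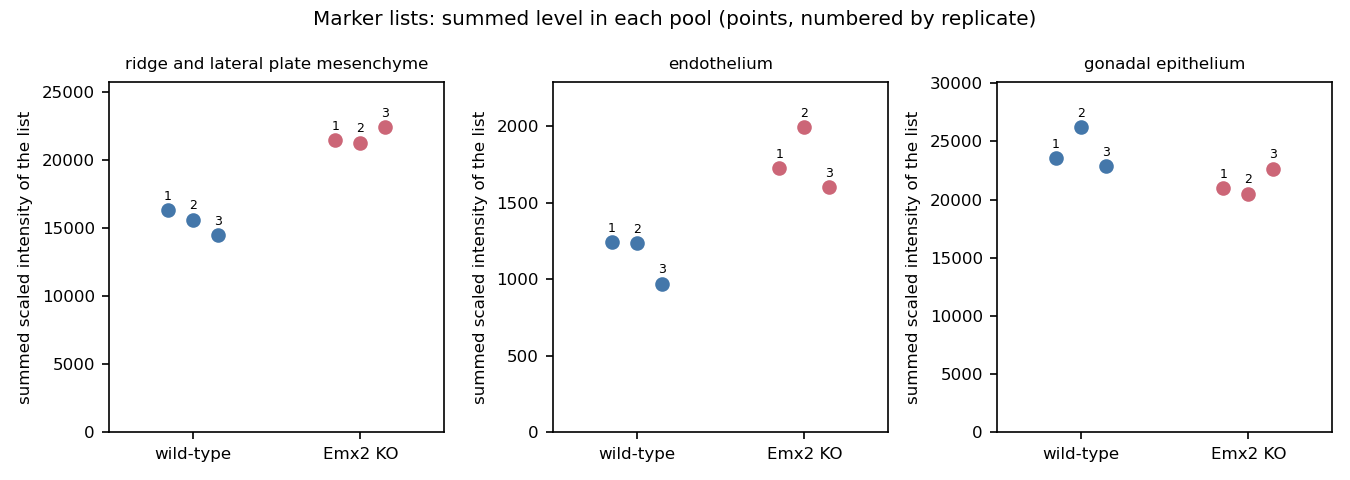
Summed scaled intensity (vertical axes, from 0) of 3 marker lists in each pool, numbered by replicate. The mesenchyme and endothelium sums of the KO pools lie above those of all wild-type pools, and the epithelial sums lie below them.

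Msx1 and Msx2 had lower values in KO without a call, and the Dlx genes were too dim to be tested. Msx1, a target and mediator of BMP signalling in mesenchyme, had wild-type values of 274, 254 and 181 and KO values of 120, 167 and 167 (log2 fold change −0.64, SE 0.21, adjusted p = 0.113). Msx2, its paralog, read 156, 141 and 123 against 86.6, 106 and 105 (−0.49, SE 0.19, adjusted p = 0.2). The groups did not overlap for either gene, and neither passed. Without wild-type replicate 3 Msx1 passed (−0.82, adjusted p = 0.0339). A second, dimmer probe set of each gene was not tested. Dlx1, Dlx2, Dlx5 and Dlx6, regulators of branchial arch, limb and forebrain, read at most 17.8 in any pool, under the dim limit throughout.

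Barx1, Hhex and the Meox genes gave no call. Hhex, a factor of liver, thyroid and endothelium, had wild-type values of 47.4, 43.5 and 48.9 and KO values of 54.5, 65.1 and 62.6. The groups were apart, and the difference did not pass (log2 fold change 0.38, SE 0.24, adjusted p = 0.47). Barx1, a factor of stomach mesenchyme, gave 0.14 with overlapping groups. Meox1 and Meox2, factors of the somites, were too dim to be tested: Meox1 read 47.1, 6.74 and 35.1 in the KO pools and at most 27.5 in wild-type, and Meox2 read at most 13.4.

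The sine oculis relatives and the LIM members gave no call either. Six2, which maintains nephron progenitors, had wild-type values of 89.0, 125 and 112 and KO values of 128, 183 and 138 (log2 fold change 0.46, SE 0.21, adjusted p = 0.29). Six5 gave −0.13. Isl1, a LIM factor of motor neurons, heart and limb mesenchyme, had wild-type values of 692, 392 and 475 and KO values of 337, 547 and 322, with overlapping groups (log2 fold change −0.37, SE 0.23, adjusted p = 0.45). It gave −0.62 without KO replicate 2 (adjusted p = 0.187), −0.24 without KO replicate 3 (0.741) and −0.15 with wild-type replicate 1 left out (0.86). Its dimmer probe set gave −0.61, and wild-type replicate 1 read 157 there against 76.8 in the next pool. Lhx6 and Lhx8 were too dim to be tested, at most 37.2 and 9.28.

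Of the CUT genes Cux1 rose on its brightest probe set. Cux1 encodes a repressor with several DNA-binding repeats, and the same gene also makes a Golgi protein without them. Probe set 1441956_s_at had wild-type values of 485, 614 and 559 and KO values of 940, 750 and 871. The groups did not overlap, and the means were 552 ± 65.0 and 854 ± 95.9 (log2 fold change 0.63, SE 0.13, adjusted p = 0.0167), a 1.55-fold rise. It held without KO replicate 2 (0.72, adjusted p = 0.0213) and without wild-type replicates 2 and 3. Leaving out wild-type replicate 1 ended the call (0.54, adjusted p = 0.0805), as did leaving out KO replicate 1 or 3 (0.56 and 0.61, adjusted p = 0.0814 and 0.0731).

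Of the 8 tested Cux1 probe sets, 5 had positive and 3 negative log2 fold changes. The 4 brightest gave 0.63, 0.26, 0.32 and 0.66, the last reading 288, 463 and 297 against 528, 487 and 607 (1437431_at, SE 0.18, adjusted p = 0.0616). The 4 dimmest gave −0.05, −0.72, −0.55 and 0.03, none of which passed. The log2 ratio of 1437431_at to 1437686_x_at had wild-type values of 1.89, 2.63 and 2.81 and KO values of 3.52, 3.69 and 4.25, higher by 1.38 on average, and was not tested because the pair was chosen for its difference. With the mean of all its probe sets Cux1 was not called. Cux2 gave −0.31, −0.15 and −0.77, and none passed (the lowest adjusted p was 0.184).

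**Figure D5:**
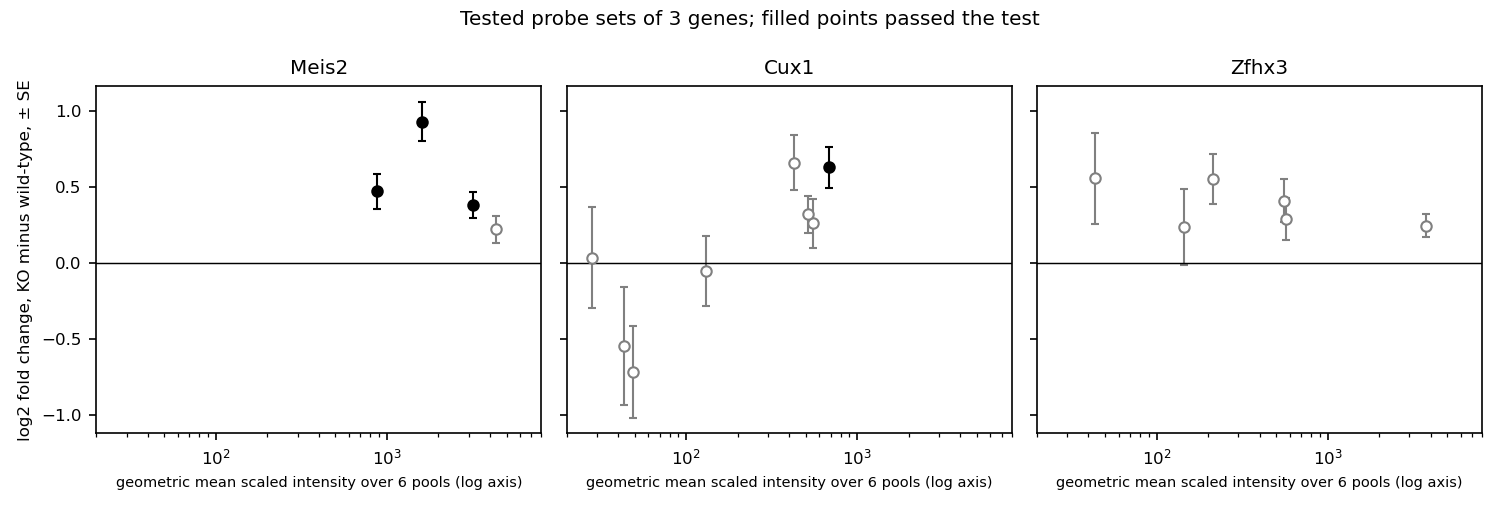
Log2 fold change of KO minus wild-type with its SE against mean intensity (log axis) for each tested probe set of Meis2, Cux1 and Zfhx3. All 4 Meis2 and all 6 Zfhx3 probe sets lie above 0, while the 8 of Cux1 lie on both sides, and filled points passed the test.

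Tshz1 was the only member called lower. Tshz genes encode zinc finger homeobox factors of the teashirt family, which pattern trunk mesenchyme and smooth muscle of the ureter. The bright probe set 1427233_at of Tshz1 had wild-type values of 2766, 2354 and 2211 and KO values of 1558, 1623 and 2023. The groups did not overlap, and the means were 2444 ± 288 and 1734 ± 252 (log2 fold change −0.50, SE 0.12, adjusted p = 0.032). It passed without KO replicate 3 (−0.61, adjusted p = 0.0189) and without wild-type replicate 3 (−0.57, adjusted p = 0.0193). It was lost with each of the other 4 pools left out in turn, with adjusted p from 0.0588 to 0.153, and without KO replicate 2 it was −0.45 (adjusted p = 0.123). The call was also lost with the replicate block (limma adjusted p = 0.0547), with no intensity trend (0.183) and with no rescaling (0.536). It was lost with no filter on dim probe sets (0.27) and with neither filter nor floor (0.158). The dimmer Tshz1 probe set gave −0.18 (adjusted p = 0.689) with overlapping groups. With the mean of all its tested probe sets Tshz1 was not called (−0.34, SE 0.13, limma adjusted p = 0.169).

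Its paralogs did not pass. Tshz2 gave −0.25 and −0.36 on 2 probe sets. Tshz3, which is required for ureter muscle, had wild-type values of 268, 214 and 261 and KO values of 304, 305 and 367 (log2 fold change 0.39, SE 0.16, adjusted p = 0.209). The groups of Tshz3 did not overlap, and its difference had the opposite sign to those of Tshz1 and Tshz2.

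Zfhx3 and Zfhx4, giant factors with several homeodomains and zinc fingers, had higher values without a call. All 6 Zfhx3 probe sets had positive log2 fold changes, from 0.24 to 0.56, and the groups did not overlap on 4 of them. Its brightest, 1449947_s_at, had wild-type values of 3525, 3511 and 3333 and KO values of 4152, 4058 and 4058 (0.24, SE 0.08, adjusted p = 0.104), and passed with quantile normalization (adjusted p = 0.0366). Its probe set of smallest p, 1460006_at, read 174, 168 and 192 against 256, 230 and 301 (0.55, SE 0.16, adjusted p = 0.0825). Probe set 1420650_at passed without wild-type replicate 3 (0.54, adjusted p = 0.0417). Zfhx4 gave 0.23 and 0.58.

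Of 13 members with more than 1 tested probe set, 10 had all of them on the same side of 0 in the main fit. The exceptions were Pbx2, Meis1 and Cux1. This count was not repeated with other scalings. An unadjusted p under 0.05 was reached by 19 of the 59 member probe sets (32.2%), 13 higher and 6 lower, against 17.3% of all tested probe sets. The 14 members without a tested probe set were Emx1, Irx1, Irx2, Irx4, Irx6, Shox2, Dlx1, Dlx2, Dlx5, Dlx6, Meox1, Meox2, Lhx6 and Lhx8. Of these, Lhx6 was the gene with a probe set whose groups did not overlap, with wild-type values of 12.2, 18.6 and 1.74 and KO values of 37.2, 25.4 and 18.8. The groups were barely apart there, at 18.6 and 18.8, both under the dim limit of 26.4. The other Lhx6 probe set had overlapping groups, so no difference is read from this.

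The upstream windows of the called members that rose are shown to set their sequences beside that of Emx2. Each is the 250 bases before the start in the RefSeq table (GRCm38.p6), with TAAT or ATTA in capitals. Meis2 lies at chr2:116064620-116064869, minus strand, Cux1 at chr5:136565982-136566231, minus strand and Prrx2 at chr2:30845117-30845366, plus strand.
Meis2: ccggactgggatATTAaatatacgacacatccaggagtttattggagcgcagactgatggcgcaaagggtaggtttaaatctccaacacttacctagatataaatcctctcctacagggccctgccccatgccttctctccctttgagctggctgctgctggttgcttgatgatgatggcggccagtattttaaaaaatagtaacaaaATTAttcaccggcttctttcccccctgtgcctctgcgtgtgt
Cux1: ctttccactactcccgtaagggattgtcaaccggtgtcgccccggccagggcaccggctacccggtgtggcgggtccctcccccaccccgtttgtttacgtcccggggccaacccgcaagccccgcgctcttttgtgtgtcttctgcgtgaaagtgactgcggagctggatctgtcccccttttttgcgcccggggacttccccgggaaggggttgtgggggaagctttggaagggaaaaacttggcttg
Prrx2: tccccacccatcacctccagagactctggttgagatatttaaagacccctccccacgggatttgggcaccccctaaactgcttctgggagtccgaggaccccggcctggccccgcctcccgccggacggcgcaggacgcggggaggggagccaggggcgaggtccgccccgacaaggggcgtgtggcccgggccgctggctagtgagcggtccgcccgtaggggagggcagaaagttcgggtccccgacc
The TAAT core occurs at 2 places in the Meis2 window, at 1 in that of Emx2 and at 0 in those of Cux1 and Prrx2, while 54.9% of all 32851 windows hold it. Of the 44 members, 30 had a window in the promoter set, whether or not they were tested. Among their 37 windows, 15 hold it. The palindromic TAATTA, found in 4.84% of all windows, and the Meis and Tgif motif TGACAG with its reverse CTGTCA, found in 15.9%, are in none of the 4 windows shown. These counts describe the letters of the windows only.

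Beyond the members, 115 further homeobox genes outside the Hox clusters were listed, of which 93 were on the array and 37 had tested probe sets. Of those 37, 5 were called higher (Zeb2, Pax3, Hlx, Pou3f1 and Prrx1), 13.5% against 2.93% of all genes. Another 2 were called lower (Lhx1 and Zfhx2), 5.41% against 2.48% of all genes, but both entered the test through their wild-type values. Both directions together, with those 2 counted, made 18.9% against 5.41% of all genes, and 30 were not called. Pax3, a factor of dorsal neural tube, neural crest and muscle precursors, had wild-type values of 30.8, 30.3 and 42.2 and KO values of 87.0, 232 and 86.3 (log2 fold change 1.82, SE 0.36, adjusted p = 0.0099). It was higher in all 3 KO pools, most in KO replicate 2, and without that pool gave 1.35 (adjusted p = 0.0319). Hlx, a factor of gut and liver mesenchyme, had wild-type values of 147, 107 and 59.7 and KO values of 245, 225 and 277 (1.34, SE 0.27, adjusted p = 0.0122), a call lost without KO replicate 3 (1.26, adjusted p = 0.0652).

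Pou3f1, a POU factor of Schwann cells and early epiblast, had wild-type values of 61.8, 53.4 and 56.5 and KO values of 103, 127 and 106 (0.96, SE 0.21, adjusted p = 0.0196). With wild-type replicate 1 or 3 left out it passed, and it was lost with each of the other 4 pools left out, with adjusted p from 0.0527 to 0.101. Zeb2 and Prrx1, factors of mesenchyme, gave 0.90 (SE 0.14) and 0.81 (SE 0.20), and Prrx1 passed without wild-type replicate 3 alone (adjusted p = 0.0154, otherwise 0.0749 to 0.138).

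The lower calls were of weak probe sets. Lhx1, a LIM factor of the nephric duct and of neurons, had wild-type values of 75.8, 45.5 and 59.1 and KO values of 20.6, 22.4 and 19.3 (−1.51, SE 0.30, adjusted p = 0.0116). All KO values lay under the dim limit, and the call was lost without wild-type replicate 1 (−1.33, adjusted p = 0.0695). Zfhx2 read 53.8, 38.0 and 46.6 against 19.1, 22.7 and 18.1 (−1.20, SE 0.31, adjusted p = 0.0439), and its KO values lay under the dim limit too. Both probe sets entered the test through their wild-type values, so neither call is support for a fall. Zfhx2 was tested in 5 fits that left out a pool and missed the threshold in each, with adjusted p from 0.0581 to 0.13. The nephric duct list, which holds Lhx1, summed to 258 to 301 in wild-type and 89.9 to 140 in KO pools. Of its 3 tested genes 2 were called lower, Lhx1 itself and Pax8, and Ret was under the dim limit in both groups. The sum and the count thus include Lhx1 and are not separate from its call. The part of nephric duct cells in the Lhx1 value was not tested.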

How the data were processed

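Expression was read on 6 arrays with 1 colour, and the authors deposited a linear intensity for each probe set. The submitters' processing notes name GCOS 1.2, whose algorithm and scaling are not given in the sources used here. Per the labels' protocols, RNA was amplified over 2 cycles, which shortens the copies and can weaken probe sets away from the 3' end.

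The arrays' 2% trimmed means differed by up to 1.47 times, so all were multiplied to a trimmed mean of 309.2. A floor was set at the 20th percentile of the scaled values (7.99), and log2 was taken of the scaled and floored values. The 64 control probe sets and the dimmest 40% (below an intensity of 26.4) were left out. The genotypes were tested with limma 3.58.1 under R 4.3.3 (eBayes with an intensity trend, 3 against 3 pools, Benjamini-Hochberg over 27022 probe sets). Intervals are 95% intervals of that fit. Simulated arrays of 27022 tested probe sets recovered 32 of 96 2-fold and 78 of 92 4-fold changes. The number of arrays limits the precision.

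Probe sets were named from the platform annotation, and all 44 members matched the RefSeq table of GRCm38.p6. The members and gene lists were chosen with earlier results of these data known. Pool values are given for every Emx probe set, each called member and the member of smallest p in families without a call, and other members by their log2 fold changes. Tshz3, Msx2, Irx1, Irx2, Irx3, Meis1, Meox1, Lhx6, Zfhx3 and the genes of neural tissue given by pool were added after their values were seen. Other scalings, floors, filters, models and pools left out were tried.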

Additional observations from a re-analysis of the deposited data

How the results depend on the processing

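Of the 6 called member probe sets, Meis2 1440091_at was the one that passed in all but 1 of its 19 alternatives. All 6 were called with array weights, no floor, a pseudocount in its place or a floor at the 40th percentile. With no filter on dim probe sets limma called 151 of all probe sets, 0 of the members (22 at an unadjusted p under 0.05; 0 higher, 0 lower and 0 member genes) and 0 of the other homeobox list (24 at an unadjusted p under 0.05). With neither filter nor floor it called 490, with 1 member probe set, 1 higher, 0 lower, 0 genes and 2 of the other list. With no intensity trend it called 541, with 1 member, 1 higher, 0 lower, 0 genes and 5 of the other list. With no rescaling 1 member was called, 1 higher, 0 lower and 0 genes. At an unadjusted p under 0.05 these 3 fits had 19, 20 and 9 member probe sets (5, 6 and 0 of them lower) and 10, 9 and 3 genes. The cause was not tested. With median scaling 3 member probe sets were called higher, 2 of Meis2 and 1 of Cux1. Without the probe sets whose names end in _a_at, _s_at or _x_at, when 43 member probe sets were tested, 2 were called, 1 of them higher. That fit left out the called probe sets of Prrx2 and Cux1 and some of those of Meis2 by name. It therefore does not test their calls. With the lowest 60% left out the other list had 6 calls, and asking for a 2-fold change left 0 members.

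Replicate numbers are not stated to pair the pools. Same-numbered pools correlated with r of −0.0653, 0.0405 and −0.0508 in their deviations from the group means, and not every pool correlated best with its own number. With 3 pools a group this check cannot exclude a shared litter or day. With the replicate block 3 member probe sets were called, 3 higher and 0 lower (6 lower at an unadjusted p under 0.05), and 1 gene, while all calls went from 1264 to 1160.

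With 1 pool left out, the calls ran from 721 to 1687 over all probe sets, from 1 to 7 over member probe sets (1 to 5 higher, 0 to 2 lower), from 0 to 3 over member genes and from 5 to 12 over the other list. Signs turned for Emx2 (0.047 with no rescaling; −0.23 to 0.12 with a pool left out), Tgif2 (0.038; −0.19 to 0.055) and Irx3 (−0.53 to 0.77). Signal near the floor limits the 14 untested members, and a fold is compressed there.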

Other observations

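Further genes that were high in KO replicate 2 are given by value. Of its 26 probe sets that read at least 2-fold above every other pool, 6 were of homeobox genes: Irx3 and Irx5 among the members, and Pax3, Pou4f1, Pou3f3 and Onecut2 among the others. Pou4f1, a factor of sensory neurons, read 194 in that pool and at most 44.4 elsewhere. Onecut2 read 152 against at most 36.0, and Pou3f3 206 against at most 63.8. The neural progenitor genes Sox3 and Sox21 read 118 and 225, against at most 47.6 and 105 elsewhere. Stmn3 and Nova2, genes of neurons, read 378 and 187 against at most 63.4 and 50.7, and Dcx, a microtubule protein of young neurons, read 152 against at most 73.7. These genes were picked for their values, and what they share was not tested.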
